A study of Arabidopsis thaliana with 58 samples.

Results

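SAUR (small auxin up RNA) genes were examined in whole Arabidopsis seedlings, and 43 of the 33331 nuclear genes in the annotation were taken as the set, by a given list of locus identifiers. A RefSeq gene table named 36 further SAUR genes outside the list, which served for comparison. The list was chosen with earlier results of these data known, so shares of members set beside other genes are descriptions. All 43 genes were listed as a single exon, and they were 273 to 1139 bp long with a median of 631 bp, against a median of 1844 bp for all nuclear genes. Of the 43 genes, 32 lay in 8 tandem clusters, defined as neighbouring members no more than 10 kb apart. The other 11, called single genes here, had no other member that near. Clusters were formed among the 43 genes alone, so single genes and the 36 others may still neighbour a SAUR gene. AT3G03847 (SAUR73), 1 of the 36, lay inside a cluster.

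SAUR proteins are small proteins, most of whose genes lack introns and many of which are switched on quickly by auxin. Several of them bind and inhibit PP2C.D phosphatases, which leaves the plasma membrane proton pumps phosphorylated and active, so that the cell wall is acidified and the cell expands. In seedlings they are known for the elongation of the hypocotyl and the opening of cotyledons, and their genes are targets of auxin response factors, PIF factors and brassinosteroid factors.

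PICKLE (PKL) is a chromatin remodeler of the CHD3 type, and the study asked where it binds and how histone H3K4 methylation depends on it. Seedlings were 9 days old and grown under continuous white light. An antibody against the endogenous PKL protein was used for ChIP-seq in jaw-5D, pifQ and hy5 mutants and in WT (Col-0), with 3 libraries each. The jaw lines carry too much of a microRNA that lowers TCP transcripts, hy5 lacks the light-signalling factor HY5, and in pifQ the genes PIF1, PIF3, PIF4 and PIF5 are all mutated. H3K4me1, H3K4me2 and H3K4me3 were profiled in pkl and WT, with 3 libraries for each mark and genotype, and RNA was sequenced in 3 libraries of pkl. The pkl allele was not stated in the labels, and an anti-PKL ChIP in pkl was not analysed here.

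The deposited files were lists of called peaks, so each value below is a length in bp under peaks and not an amount of signal, and how deeply each ChIP library was sequenced is unknown. At a common limit of q = 0.01, mutant libraries held 10911 to 13548 PKL peaks. The WT libraries held 821, 632 and 2824. The WT lists also ended at a stricter q and named chromosomes in another way, so in PKL comparisons with WT the making of the list and the genotype cannot be told apart. RNA libraries of pkl held 17300314 to 17656899 counts. Shoot markers were high (RBCS1A at 24411 TPM on average, where TPM is a transcript level scaled by gene length and library total). Root markers ranged from 0.782 TPM (PLT1) to 25.1 TPM (SCR) on average. Among them EXPA7 and EXPA18 were at 19.9 and 20.1 TPM, while WOX5 and RHD6 were low, at 1.375 and 2.141 TPM. The 3 seed markers stayed at or under 0.593 TPM in each library. The transcript of PKL itself was present in pkl, at 29.6, 31.9 and 33.9 TPM. All values come from whole seedlings, in which fewer cells of a type and less RNA per cell cannot be told apart.

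PKL peaks seen in at least 2 WT libraries lay at some of the tandem SAUR genes, mostly upstream of the gene start. A gene was counted as bound where peaks covered at least 50 bp of the gene or the 1000 bp upstream of it. By this rule 8 of the 43 SAUR genes were bound in at least 2 of the 3 WT libraries, against 2.15% of all nuclear genes and 1.71% of the 9357 nuclear genes that were no longer than the longest member. Because the members were chosen with earlier results of these data known, this contrast supports no enrichment of the family. All 8 were in tandem clusters, and 0 of the 11 single genes and 0 of the 36 other SAUR genes were bound by the same rule. Single WT libraries bound 7, 8 and 17 members, and the 10 members bound in 1 library alone were bound in replicate 3, with the exception of SAUR16 (replicate 2). With replicate 3 left out, 6 members were bound in both other libraries.

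The summit of the highest WT peak lay upstream of the gene start in 17 of 18 members with any WT peak, at a median of -292 bp from it. SAUR78 was the exception, with a summit 11 bp inside the gene. When the upstream stretch was left out of the window, 1 of 43 members was bound in at least 2 WT libraries. Summits in mutants had medians of -283.5 bp (jaw-5D), -293 bp (pifQ) and -283 bp (hy5) from the start, and lay upstream in 27 of 34, 29 of 37 and 27 of 33 members with a peak.

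The cluster of SAUR14, SAUR15 and SAUR16 (chromosome 4, 18124978 to 18131060, TAIR10) held the member peak with the highest fold enrichment, as the authors' peak caller gave it, in WT replicates 2 and 3. In WT replicate 1 the peak of SAUR6 was higher. SAUR15, also known as SAUR-AC1, is a classic auxin-induced gene, and SAUR14 and SAUR16 are known as light-responsive genes of the cotyledon. SAUR14 (AT4G38840) had 1158, 936 and 909 bp under PKL peaks in jaw-5D, 1160, 1220 and 1367 bp in pifQ and 1185, 1210 and 1343 bp in hy5, against 531, 487 and 445 bp in WT. Each mutant library lay above each WT library. In WT the fold enrichment of this peak was 8.45, 11.9 and 9.46, at percentiles 93.1, 99.1 and 98.1 of the peaks of its own list. SAUR15 (AT4G38850) had 1158, 936 and 909 bp in jaw-5D, 967, 1047 and 1295 bp in pifQ and 992, 1017 and 1252 bp in hy5, against 531, 487 and 445 bp in WT. SAUR16 (AT4G38860) had 1153, 1039 and 943 bp in jaw-5D, 1454, 1262 and 1334 bp in pifQ and 1398, 1365 and 989 bp in hy5, against 0, 197 and 0 bp in WT. A peak was thus called at SAUR16 in each mutant library and in a single WT library.

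In the cluster on chromosome 2 (9083906 to 9089813) SAUR7 and SAUR6 were bound in WT and SAUR12 was not. SAUR6 (AT2G21210) had 1203, 1202 and 1144 bp in jaw-5D, 1420, 1353 and 1360 bp in pifQ and 1300, 1261 and 1265 bp in hy5, against 331, 504 and 935 bp in WT. SAUR7 (AT2G21200) had 1290, 834 and 954 bp in jaw-5D, 997, 1005 and 881 bp in pifQ and 1263, 984 and 1077 bp in hy5, against 0, 255 and 839 bp in WT. At SAUR6 the groups did not overlap, while at SAUR7 the highest WT library exceeded the lowest jaw-5D library. SAUR12 had 0 bp in 10 of 12 libraries and 54 bp at most.

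SAUR50 (AT4G34760), another light-responsive gene of the cotyledon, was the bound member of the 6-gene cluster on chromosome 4 (16582183 to 16599421). It had 1183, 1185 and 1235 bp in jaw-5D, 1671, 1509 and 1670 bp in pifQ and 1330, 1483 and 1697 bp in hy5, against 368, 248 and 406 bp in WT. SAUR63 (AT1G29440), which promotes elongation of hypocotyls and floral organs, was the bound member of the 5-gene cluster on chromosome 1 (10301152 to 10308143). It had 328, 437 and 353 bp in jaw-5D, 541, 473 and 565 bp in pifQ and 544, 534 and 490 bp in hy5, against 223, 480 and 391 bp in WT. Its jaw-5D and WT values overlapped, unlike those of SAUR50.

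SAUR20 and SAUR21 were the bound members of the SAUR19 to SAUR24 cluster (chromosome 5, 5962897 to 5984112), a group of closely related genes that promote hypocotyl growth. SAUR20 (AT5G18020) had 354, 421 and 458 bp in jaw-5D, 629, 611 and 528 bp in pifQ and 573, 593 and 560 bp in hy5, against 246, 367 and 430 bp in WT. SAUR21 (AT5G18030) had 390, 472 and 449 bp in jaw-5D, 546, 577 and 607 bp in pifQ and 668, 664 and 552 bp in hy5, against 408, 0 and 398 bp in WT. At both genes jaw-5D overlapped WT and lay below pifQ and hy5 in each library. SAUR24 had peaks in all 9 mutant libraries and 490 bp in WT replicate 3, whereas SAUR19, SAUR22 and SAUR23 had a peak in 2, 1 and 1 of the 12 libraries. How reads that match several of these near-identical genes were placed is not given in the sources used here, so peaks and counts within this cluster are uncertain.

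**Figure D1:**
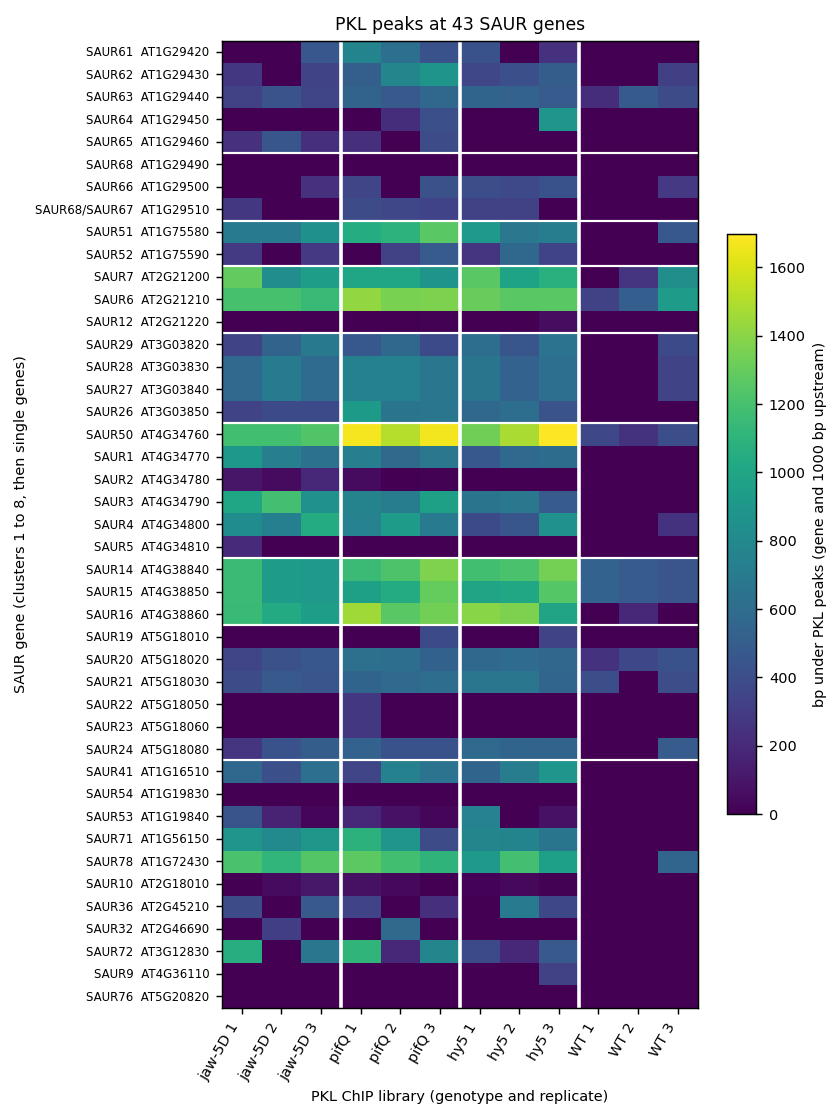
Length in bp under PKL peaks (colour) in the gene and 1000 bp upstream for 43 SAUR genes (rows, with white lines between clusters) in 12 libraries (columns: jaw-5D, pifQ, hy5, then WT). The 8 genes bound in at least 2 WT libraries stand out in the 3 columns on the right, and 21 genes have a peak in all 9 mutant columns.

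Neighbouring SAUR genes shared single PKL peaks at 5 of the 24 adjacent pairs within clusters. A peak counted as shared where it covered at least 50 bp in the windows of both genes. Windows overlapped in 10 pairs, so that a peak between those genes falls in both by construction. Of the 7 divergent pairs, which are transcribed away from a common stretch, 4 shared a peak in at least 1 library. On the same strand it was 1 of 14 pairs, and 0 of 3 convergent pairs. Windows overlapped in 5 divergent, 5 same-strand and 0 convergent pairs, and each pair that shared a peak had overlapping windows. The upstream window thus partly set this contrast in advance, and it supports no difference by orientation.

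SAUR14 and SAUR15, a divergent pair 611 bp apart, shared a peak in all 9 mutant and all 3 WT libraries. SAUR7 and SAUR6, which follow each other on the same strand with 834 bp between them, shared a peak in 9 mutant libraries and 2 WT libraries. This peak was 255 to 2397 bp long, with a median of 2079 bp. In both of these WT libraries it lay apart from a second peak just upstream of SAUR6, whereas peaks ran over both stretches without a gap in each mutant library. The genes SAUR28 (AT3G03830) and SAUR27 (AT3G03840), a divergent pair 583 bp apart, shared a peak in 9 mutant libraries and 1 WT library. Both had 578, 701 and 593 bp in jaw-5D, 744, 745 and 663 bp in pifQ and 657, 535 and 619 bp in hy5, against 0, 0 and 349 bp in WT.

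The remaining pairs shared peaks rarely. SAUR2 (AT4G34780) and SAUR3 (AT4G34790) shared a peak in 3 mutant libraries, 2 of jaw-5D and 1 of pifQ. SAUR22 (AT5G18050) and SAUR23 (AT5G18060) shared a 273 bp peak in pifQ replicate 1 and had 0 bp in the other 11 libraries. SAUR20 and SAUR21 are divergent as well, 1757 bp apart, and had separate peaks in each library in which both were bound.

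**Figure D2:**
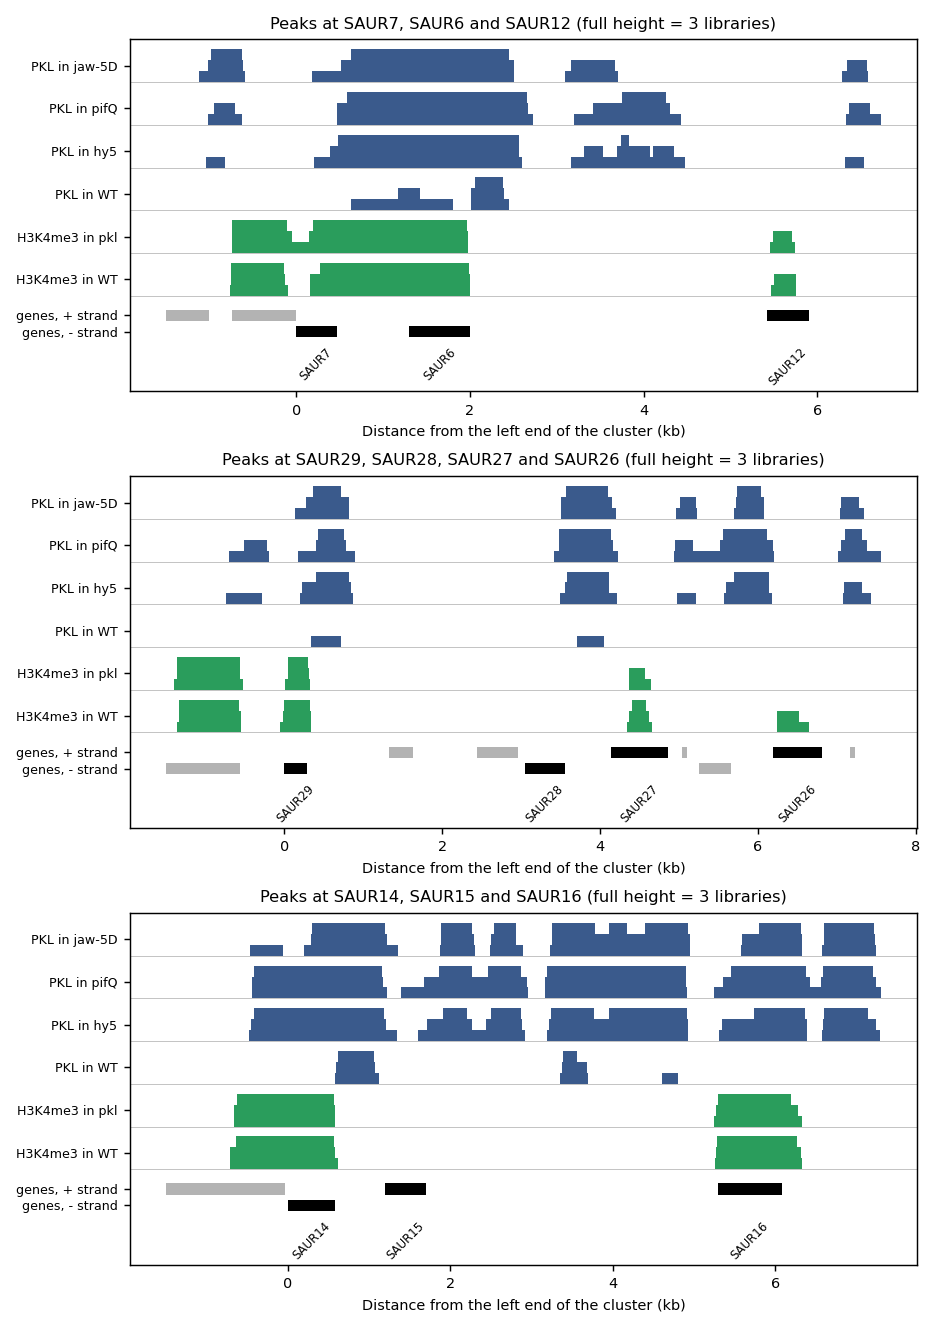
Peaks along 3 SAUR clusters, as distance in kb from the left end of the cluster, with PKL in jaw-5D, pifQ, hy5 and WT and H3K4me3 in pkl and WT (height: 1 to 3 libraries with a peak). Black bars are SAUR genes and grey bars other genes. The PKL peak between SAUR14 and SAUR15 is present in 3 libraries of each line, and H3K4me3 covers SAUR14 but not SAUR15.

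PKL peaks were called at more SAUR genes in the mutants than in WT, as they were across the genome. A peak was present in all 3 libraries at 22 members in jaw-5D (22.4% of all nuclear genes), 25 in pifQ (22.7%) and 25 in hy5 (19.8%). It was present in all 9 mutant libraries at 21 members, against 16.0% of nuclear genes and 7 of the 36 other SAUR genes. Of these 21 genes 18 were in clusters. All 8 genes bound in WT were among them, and 5 had no peak in any WT library (9.61% of nuclear genes): SAUR41, SAUR71, SAUR26, SAUR1 and SAUR3. SAUR54, SAUR68 (AT1G29490) and SAUR76 had no peak in any of the 9 mutant libraries, a state found in 53.9% of nuclear genes. The other 19 members had a peak in 1 to 8 of them.

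The length under peaks was compared with limma across all genes with a peak in at least 3 of 12 libraries, which included 33 members. Values were centred on the 261 genes bound in all 12 libraries, where mutants exceeded WT by 1.15 (jaw-5D), 1.23 (pifQ) and 1.11 (hy5) on the log2 scale. A gene called longer therefore gained more length than those genes did. A gene could enter the test through mutant libraries alone, where peaks were more frequent, so the counts that follow describe the genes tested and support no difference of the SAUR genes. In jaw-5D 8 members were longer than in WT and 2 shorter, against 34.0% and 1.45% of all genes tested. In pifQ 10 were longer and 1 shorter, against 32.0% and 1.52%, and in hy5 8 were longer and 1 shorter, against 31.5% and 2.02%. The members' median log2 difference was 0.43 in jaw-5D, 0.53 in pifQ and 0.75 in hy5, beside 0.81, 0.72 and 0.58 over all genes tested. Without centring, 20 (jaw-5D), 24 (pifQ) and 23 (hy5) members were longer and 0 shorter, against 67.2%, 68.0% and 60.6% of genes tested.

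Of the 7 members longer in all 3 mutants, 5 were the genes without any WT peak. Genes with a peak in all 9 mutant libraries and 0 of 3 WT libraries were 11.6% of members, near the 9.61% of all nuclear genes. The share of all genes tested that were longer in all 3 mutants is not given here, so the 7 are a description. SAUR41 (AT1G16510), known for a role in cell expansion, had 571, 412 and 621 bp in jaw-5D, 353, 744 and 644 bp in pifQ and 548, 712 and 888 bp in hy5, against 0 bp in each WT library. Its mutant summits had medians of -1313, -1286 and -1290 bp from the gene start in jaw-5D, pifQ and hy5, beyond the window, which held only part of these peaks. A single pifQ library had its summit inside the gene, at 271 bp. SAUR71 (AT1G56150) had 887, 815 and 901 bp in jaw-5D, 1091, 883 and 387 bp in pifQ and 773, 764 and 661 bp in hy5, against 0 bp in WT. SAUR26 (AT3G03850) had 350, 382 and 382 bp in jaw-5D, 923, 653 and 668 bp in pifQ and 572, 612 and 435 bp in hy5, against 0 bp in WT. AT3G03847, a neighbouring gene of the cluster that RefSeq names SAUR73 and that is not a member, had similar values of 307, 382 and 354 bp in jaw-5D, 852, 653 and 668 bp in pifQ and 572, 582 and 435 bp in hy5, against 0 bp in WT.

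SAUR1 (AT4G34770) and SAUR3 (AT4G34790) belong to the cluster of SAUR50. SAUR1 had 906, 727 and 641 bp in jaw-5D, 728, 584 and 676 bp in pifQ and 469, 582 and 597 bp in hy5, against 0 bp in WT. SAUR3 had 1002, 1192 and 857 bp in jaw-5D, 756, 716 and 962 bp in pifQ and 654, 679 and 486 bp in hy5, against 0 bp in WT. These 5 genes had no WT peak and entered the test only through the mutants, so their values are given as a description, with no p and no fold.

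The other 2 of the 7 were SAUR16, given above, and SAUR78 (AT1G72430), which had 1209, 1119 and 1245 bp in jaw-5D, 1269, 1186 and 1101 bp in pifQ and 912, 1187 and 958 bp in hy5, against 0, 0 and 556 bp in WT. Both had a peak in 1 WT library and likewise reached the filter through the mutants. The p-values that follow thus rest on a filter that the difference itself helped to decide, and support no difference. The limma adjusted p of SAUR16 was 0.00855 (jaw-5D), 0.00444 (pifQ) and 0.00443 (hy5). That of SAUR78 was 0.0275, 0.0367 and 0.0476 in the same lines, and it lay between 0.0556 and 0.236 when any one library of the line compared, WT replicate 1 or WT replicate 2 was left out. The calls of SAUR16 were kept without any one library, which does not lift the limit set by the filter.

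SAUR50, which had a peak in each WT library and so met the filter in WT alone, was longer in pifQ (log2 0.75, SE 0.217, limma adjusted p = 0.0202) and hy5 (log2 0.76, SE 0.217, adjusted p = 0.0185), and its value in jaw-5D was 0.43 (adjusted p = 0.15). The calls were lost without replicate 3 of the mutant (adjusted p = 0.0508 in pifQ and 0.0563 in hy5) or without WT replicate 2 (0.0749 and 0.0838). SAUR4 (AT4G34800) had 825, 735 and 1046 bp in jaw-5D, 753, 932 and 693 bp in pifQ and 379, 451 and 857 bp in hy5, against 0, 0 and 246 bp in WT. With a peak in 1 WT library, SAUR4 reached the filter through the mutants. Its p-values thus rest on a filter that the difference itself helped to decide. It was longer in jaw-5D (limma adjusted p = 0.0127) and pifQ (0.0263). Without WT replicate 1 or 2 these became 0.074 and 0.0646 in jaw-5D and 0.138 and 0.12 in pifQ, and without pifQ replicate 1 or 2 they became 0.0507 and 0.0826.

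SAUR51 (AT1G75580) had 695, 705 and 855 bp in jaw-5D, 1053, 1099 and 1260 bp in pifQ and 913, 674 and 721 bp in hy5, against 0, 0 and 465 bp in WT. SAUR51 also had a peak in 1 WT library and reached the filter through the mutants, so its p-values rest on that filter. It was longer in pifQ (limma adjusted p = 0.0245). The adjusted p was 0.0589 to 0.136 when pifQ replicate 2 or 3 or WT replicate 1 or 2 was left out. Although each mutant library lay above each WT library, the adjusted p was 0.0934 in jaw-5D and 0.0829 in hy5.

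The calls of shorter peaks rested on centring. SAUR63 and SAUR20 were called shorter in jaw-5D (limma adjusted p = 0.0115 and 0.0109), yet their bp values overlapped those of WT, and without centring their log2 differences were 0.06 and 0.21. SAUR2 was called shorter in pifQ and hy5. It had 100, 49 and 193 bp in jaw-5D and 51, 0 and 12 bp in pifQ, and 0 bp in each hy5 and each WT library, so in hy5 the call came from centring alone. In pifQ its limma adjusted p of 0.0275 became 0.0617 to 0.0839 without pifQ replicate 2 or 3 or WT replicate 1 or 2.

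WT replicate 3, with more peaks than the other WT libraries, moved these counts. Without it 13, 14 and 15 of 33 members tested were longer in jaw-5D, pifQ and hy5. Of all 11524 genes tested 4030, 3899 and 3926 were longer in the same lines. In pifQ 7 members were longer without pifQ replicate 2 or without replicate 3, and 6 without WT replicate 2. Over all genes tested 3123 of 11181, 3181 of 11067 and 3047 of 11536 were longer in these settings.

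Between mutants no member passed the threshold. In pifQ against jaw-5D 0 of 33 members were called, against 2.57% of genes tested, and 5 members had an unadjusted limma p under 0.05. In hy5 against jaw-5D 0 were called (2.63% of genes, 4 members under 0.05), and in hy5 against pifQ 0 (1.14%, 1 member). SAUR26 had the lowest p in pifQ against jaw-5D (log2 0.83, SE 0.201, limma adjusted p = 0.0618), with all pifQ libraries above all jaw-5D libraries. In hy5 against jaw-5D it was SAUR65 (AT1G29460), which had 0 bp in each hy5 library, against 241, 456 and 237 bp in jaw-5D (adjusted p = 0.0658). These genes were named after their values were seen. An adjusted p above the threshold does not show that the lines bind alike.

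H3K4me1 was practically absent from SAUR genes. No member was marked in all 3 libraries of pkl or of WT, where marked means at least 150 bp of the gene under peaks, against 36.9% of nuclear genes in pkl and 36.2% in WT. Among nuclear genes no longer than the longest member these shares were 1.82% and 1.6%. The single exception was 301 bp at SAUR61 (AT1G29420) in pkl replicate 1. No member was therefore tested for this mark.

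H3K4me2, found over gene bodies of moderate activity, marked 23 members in all 3 pkl libraries and 18 in all 3 WT libraries, against 52.5% and 51.3% of nuclear genes. Among nuclear genes no longer than the longest member the shares were 22.2% in pkl and 22.9% in WT, below the members' 53.5% and 41.9%. In single genes 9 of 11 were marked in all 3 libraries of each genotype, while in clusters it was 14 of 32 in pkl and 9 of 32 in WT. A set of 11 members, all in clusters, was marked in none of the 6 libraries. That is 25.6% of members, against 68.6% of the short nuclear genes and 38.9% of all nuclear genes. By the median over libraries, summits lay inside the gene in 30 of 32 members with a peak in pkl and 28 of 28 in WT. The exceptions in pkl were SAUR7, with a median summit at 850 bp from the gene start, past its end, and SAUR61. SAUR61 had a peak in 2 pkl libraries, with summits at -565 and 109 bp, the latter inside the gene. Of 26 members tested, 0 passed in pkl against WT (limma, 1.58% of all genes tested), and 1, SAUR36 (AT2G45210), had an unadjusted p under 0.05. SAUR36, linked to leaf senescence, had 501, 557 and 570 bp in pkl, against 622, 571 and 606 bp in WT (log2 fell by 0.28 after centring, SE 0.0751, limma adjusted p = 0.245). Its H3K4me3 was 623, 602 and 636 bp in pkl, against 500, 569 and 498 bp in WT (log2 0.21, adjusted p = 0.227). The genotypes did not overlap for either mark, and neither difference passed.

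H3K4me3, a mark of active promoters, covered 15 members in all 3 pkl libraries and 18 in all 3 WT libraries, against 48.9% and 48.2% of nuclear genes. Among nuclear genes no longer than the longest member the shares were 18.6% in pkl and 18.1% in WT, below the members' 34.9% and 41.9%. The mark was present in all 6 libraries in 14 members and in none in 15. The 15 are 34.9% of members, against 78.4% of the short nuclear genes and 48.0% of all nuclear genes. Transcript levels in pkl had a median of 10.8 TPM in the 14 genes with the mark throughout and 1.33 TPM in the 15 genes without it. Of 22 members tested, 0 were longer and 1 was shorter in pkl (limma, 1.14% and 0.387% of all genes tested).

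Of the 3 pairs that shared a PKL peak in all 9 mutant libraries, 2 had H3K4me3 on 1 of the 2 genes only. SAUR14 had 582, 572 and 580 bp in pkl, against 582, 574 and 580 bp in WT, so nearly the whole gene was covered, whereas SAUR15 had 0 bp in all 6 libraries. SAUR6 had 676, 674 and 666 bp in pkl, against 686, 700 and 693 bp in WT, and SAUR7 had 327, 470 and 278 bp in pkl, against 201, 307 and 314 bp in WT. A single peak with its summit inside SAUR6 (medians 364 bp in pkl and 372 bp in WT from the start of SAUR6) covered both genes in each library. SAUR7 carried the edge of that peak, except in pkl replicate 2, where the peak covered all 470 bp of SAUR7 and ran on past it. SAUR27 had 203, 283 and 0 bp in pkl, against 258, 243 and 260 bp in WT, while SAUR28 had 0 bp in all 6. In none of these 6 genes did H3K4me3 pass the test in pkl against WT, where a test was possible.

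The other members bound by PKL in WT varied as well. SAUR50 had 689, 697 and 697 bp of H3K4me3 in pkl, against 697 bp in each WT library. SAUR63 and SAUR20 had 0 bp in all 6 libraries. Of the 8 bound members, 4, with SAUR7 among them, were marked by H3K4me3 in all 3 pkl libraries and 5 in all 3 WT libraries, and H3K4me2 marked 2 in each genotype (SAUR7 and SAUR50).

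**Figure D3:**
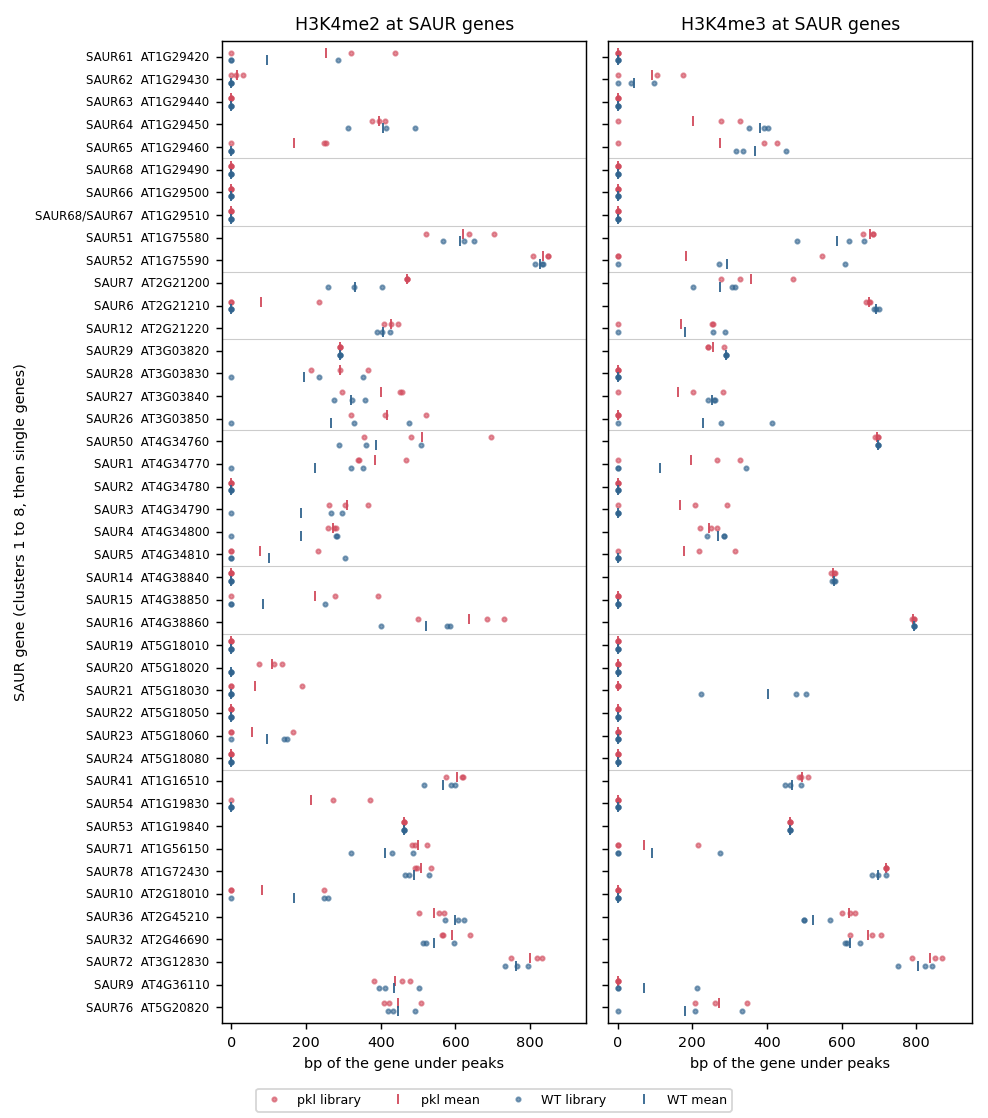
Length in bp of each SAUR gene under H3K4me2 (left) and H3K4me3 (right) peaks, with points for the 3 pkl (red) and 3 WT (blue) libraries and ticks for their means. Red and blue lie close together in most rows, and at SAUR21 the H3K4me3 points are at 0 bp in pkl and at 223 to 504 bp in WT.

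SAUR21 was the member called shorter for H3K4me3. It had 0 bp in each pkl library, against 223, 504 and 479 bp in WT, so the groups did not overlap. It entered the test only through its 3 WT libraries, so the limma adjusted p of 0.0192 rests on a filter that the difference itself decided. With all nuclear genes tested, and so no filter, the adjusted p was 0.121 and the gene did not pass. The call was also lost with any pkl library left out (limma adjusted p = 0.147 to 0.172) and with a block for the replicate number (0.114). With pkl at 0 bp no fold can be given. With any WT library left out the gene had the mark in too few libraries to be tested.

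Genes around SAUR21 kept their H3K4me3 peaks. AT5G18040, between SAUR21 and SAUR22, had 429, 481 and 522 bp in pkl, against 508, 565 and 492 bp in WT. AT5G18065 had 424, 353 and 288 bp in pkl, against 401, 397 and 417 bp in WT. The remaining 5 SAUR genes of the cluster had no H3K4me3 in any library of either genotype. The PKL peak upstream of SAUR21 was present in 2 of 3 WT libraries, and its transcript was at 7.21 ± 0.248 TPM in pkl (SD, n = 3).

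**Figure D4:**
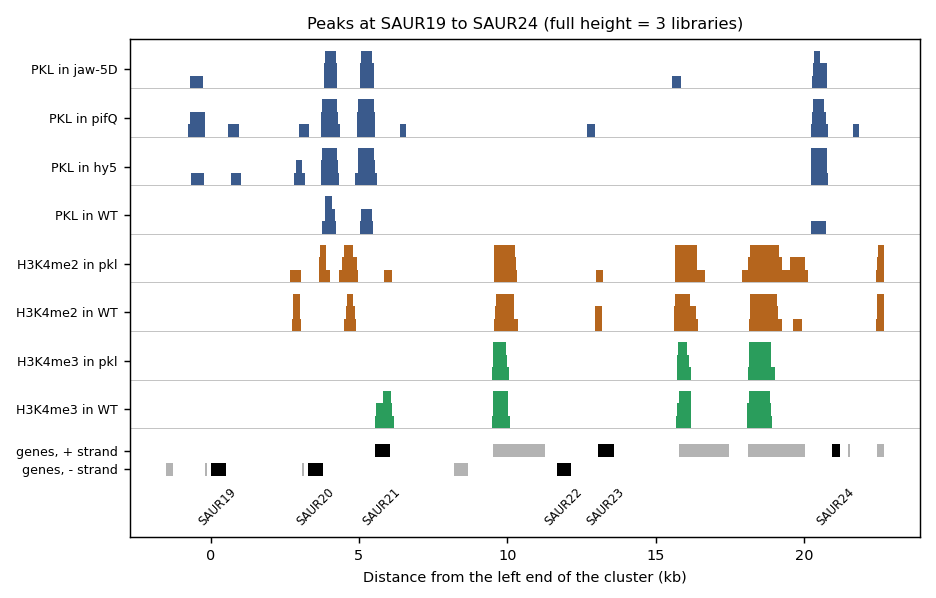
Peaks along the SAUR19 to SAUR24 cluster, as distance in kb from its left end, with PKL in jaw-5D, pifQ, hy5 and WT, then H3K4me2 and H3K4me3 in pkl and WT (height: 1 to 3 libraries with a peak). Black bars are SAUR genes and grey bars other genes. The H3K4me3 peak over SAUR21 is drawn in WT and not in pkl, while those over AT5G18040, AT5G18065 and AT5G18070, the larger grey genes to its right, are drawn in both.

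Transcript levels were available here for pkl alone and were not compared with WT. The authors' table is named FPKM, but each column sums to just under 1000000 and follows the counts per kb, so the values are TPM. Members had a median of 5.91 TPM in pkl (range 0 to 132.6), against 0.827 TPM for the 36 other SAUR genes and 3.55 TPM for all nuclear genes. Genes in clusters and single genes had medians of 5.83 and 6.01 TPM.

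SAUR78, which interacts with ethylene receptors, was the highest, with 140.5, 132.1 and 125.3 TPM. SAUR6 followed with 96.8, 95.8 and 100.6 TPM, SAUR14 with 86.7, 78.8 and 80.8 TPM and SAUR16 with 53.4, 61.5 and 56.4 TPM. These 4 did not overlap with each other. Next were SAUR50 with 32.6, 30.1 and 35.9 TPM and SAUR32, a gene of the apical hook, with 27.5, 32.1 and 28.4 TPM, whose values overlapped. The 36 following genes ranged down to a mean of 0.08 TPM for SAUR2 (1 count in all 3 libraries), and SAUR68 (AT1G29490) was listed at 0. RefSeq gives the name SAUR68 to a second member, AT1G29510, which had 6.63 ± 1.62 TPM (SD, n = 3).

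Neighbours under a shared PKL peak had unequal levels. SAUR14 was at 82.1 ± 4.09 TPM and SAUR15 at 5.65 ± 1.74 TPM, SAUR6 at 97.7 ± 2.55 TPM and SAUR7 at 1.15 ± 0.424 TPM (SD, n = 3 each). SAUR27 and SAUR28 were both low, at 1.81 ± 0.091 and 1.33 ± 0.459 TPM. In the SAUR19 to SAUR24 cluster, SAUR24 (12.5 ± 2.38 TPM), SAUR20 (7.87 ± 1.47 TPM) and SAUR21 (7.21 ± 0.248 TPM), the 3 genes with PKL peaks in all 9 mutant libraries, were above SAUR23, SAUR22 and SAUR19, which were at 0.949, 0.794 and 0.357 TPM. Placement of reads among these near-identical genes is not known, so both the peaks and the levels compared here are uncertain. The 8 members bound by PKL in at least 2 WT libraries had a median of 8.27 TPM (1.15 to 97.7), the 10 bound in 1 library 7.86 TPM and the 25 unbound ones 5.08 TPM. These are descriptions of 43 genes in pkl, not tests.

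**Figure D5:**
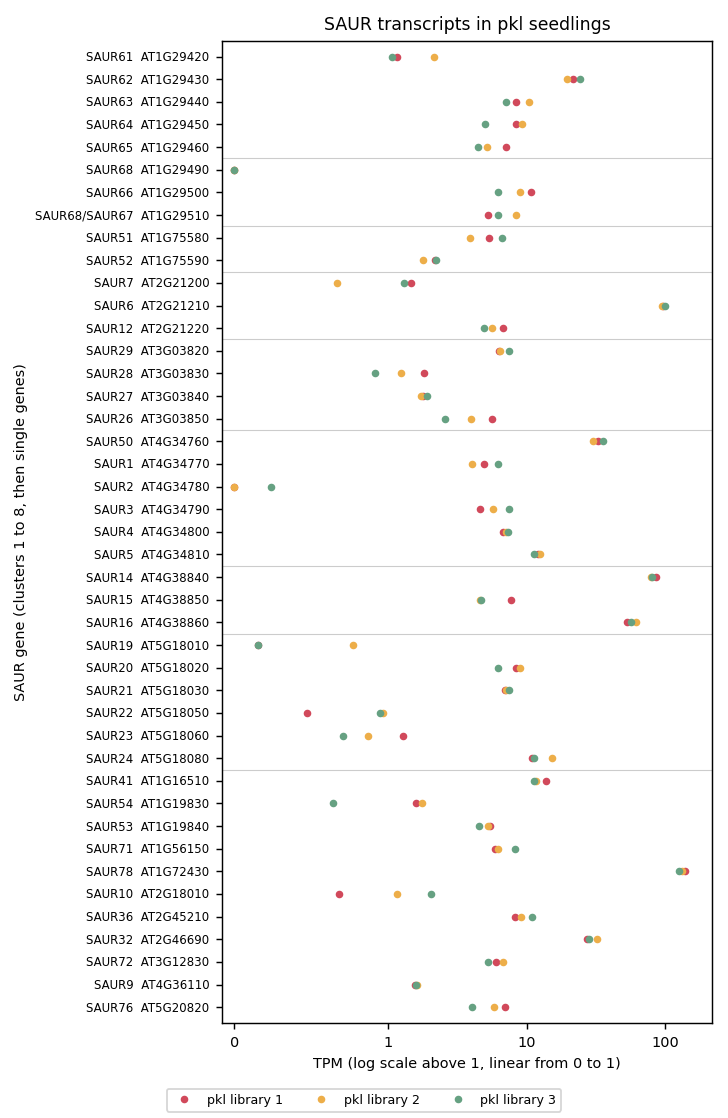
Transcript level in TPM (log axis above 1, linear from 0 to 1) of the 43 SAUR genes in the 3 pkl libraries. SAUR78, SAUR6, SAUR14 and SAUR16 lie above 50 TPM in each library, and levels differ between neighbours of one cluster.

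Genes around the SAUR proteins in auxin and growth signalling were read as a list of 22: 9 PP2C.D phosphatases, 2 plasma membrane proton pumps, 5 auxin receptors, 4 auxin response factors and the brassinosteroid factors BZR1 and BES1. PKL was bound in at least 2 WT libraries at 2 of them, the auxin receptor gene TIR1 and the PP2C.D gene AT5G02760, each in all 3. In all 9 mutant libraries 14 were bound, against 16.0% of all nuclear genes. The listed genes were longer (median 2717 bp, against 1844 bp for all nuclear genes), so their windows were wider. Of 19 tested, 10 were longer in jaw-5D, 10 in pifQ and 10 in hy5 than in WT, and 1, AT5G02760, was shorter in jaw-5D (limma, with the shares of all genes given above). A peak in all 9 mutant libraries and in no WT library was found at 7 of the 22, against 9.61% of all nuclear genes. The proton pump gene AHA2 (AT4G30190), listed by RefSeq as HA2, was among them. Of the 36 other SAUR genes 12 were tested, and 7 were longer in each mutant than in WT, while 0, 1 and 0 were shorter in jaw-5D, pifQ and hy5. Genes of both lists could enter the test through mutant libraries alone, so these counts support no difference of either list.

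Unlike the SAUR genes, the pathway genes carried H3K4me1: 18 of 22 in all 3 pkl libraries and 19 of 22 in all 3 WT libraries. Their median length was 2717 bp, so gene length moved with this difference and its part in it was not tested. For each of the 3 marks 0 pathway genes passed in pkl against WT (limma, 20 tested for H3K4me1 and 22 for each of the others). Their median level in pkl was 23.6 TPM, with AHA1 (AT2G18960, HA1 in RefSeq) at 267.7 TPM as the highest.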

How the data were processed

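The members and lists were chosen with earlier results of these data known. Seedlings gave 30 peak lists (1 per library) and 3 RNA libraries of pkl. The 10 Hi-C and 15 input samples were not used here. The RNA protocol in the labels names biological replicates. The labels do not say this of the ChIP samples, so p-values there measure the spread between samples, which may be technical. Per the submitters' processing notes the genome build was TAIR10. The notes list MACS2 2.2.5, Bowtie2 2.3.3 and HISAT2 2.1.0, and beside these deepTools, fastp and SAMtools 1.6, with no role or order. The deposited count table holds raw counts per gene with exon length. The deposited TPM table is scaled by that length and sums to 999954 to 999956. A further 6 columns of values, counted over both of these files, matched no sample label and were left out. The peak lists deposited by the authors give a fold enrichment (ratio) and a −log10 q (the authors' values) per peak. The control used for calling is not given in the sources used here.

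Gene positions came from the count table, without its 279 organellar genes. The window was the gene for marks. It was extended by 1000 bp upstream for PKL. PKL peaks of q at most 0.01 were used in all 12 lists. A gene entered the test if at least 3 libraries held 150 bp (marks) or 50 bp (PKL) of it under peaks. The test was limma 3.58.1 in R 4.3.3, on log2(bp + 100). P-values were two-sided and adjusted over all genes tested by the method of Benjamini and Hochberg, with a threshold of 0.05. The 12 PKL libraries were fitted together. Values were centred where library medians, over genes marked in every library, differed between groups by over 0.1 (log2), which applied to H3K4me2, to the comparisons with WT and to hy5 against pifQ. The comparisons of mutants with WT share the WT libraries. The fit was tested on simulated data. Values in every library are given for members bound in at least 2 WT libraries, past the threshold in any comparison or sharing a peak. Names are those of RefSeq, which matched all 43 members. Sequences are not shown.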

Additional observations from a re-analysis of the deposited data

How the results depend on the processing

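Counts of called members moved mainly with centring, the window and the filter. Without centring 20 members were called in jaw-5D, 24 in pifQ and 23 in hy5 against WT (10, 11 and 9 as reported). With all nuclear genes tested the counts were 21, 22 and 23, of which 7, 5 and 7 had 0 bp in both groups and were called by centring alone. Of all 33331 genes 4634, 4398 and 4255 were then longer and 19914, 20153 and 20297 shorter. With the gene alone as window 2, 4 and 4 members were called, and 1 member was bound in at least 2 WT libraries. Of the 7534 genes tested there, 1008, 1074 and 945 were longer and 193, 327 and 280 shorter. Leaving out 1 library gave 8 to 15, 7 to 15 and 7 to 16 calls, and 6 to 7 members bound in both remaining WT libraries. Of the 11062 to 11536 genes tested, 2986 to 4030, 2738 to 3899 and 2869 to 3926 were then longer. Between mutants, the gene alone gave 3 calls in pifQ against jaw-5D (SAUR51, SAUR50 and SAUR14) and 1 in hy5 against jaw-5D (SAUR14), and 50 bp added gave 1 in hy5 against jaw-5D (SAUR2). Leaving out 1 library gave 0 to 1 calls in hy5 against jaw-5D and 0 to 1 in hy5 against pifQ. Of the 7534 genes tested with the gene alone, 168 were longer and 125 shorter in pifQ against jaw-5D. In hy5 against jaw-5D 51 were longer and 193 shorter there, and 68 and 228 of 11538 with 50 bp added. For H3K4me2 1 member passed with all nuclear genes (SAUR20) and 1 when peaks under a −log10 q of 10 were dropped (SAUR7). For H3K4me3 0 passed with all nuclear genes, at least 300 bp, the replicate block or any library left out (0 to 0), and 3 under that stricter peak limit (SAUR64, SAUR29 and SAUR21). The cause of these moves was not tested.

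For called genes set against each alternative, the sign turned in 7 cases: without centring for SAUR63 (0.06) and SAUR20 (0.21) in jaw-5D and SAUR2 (0.25) in pifQ, and with the gene alone for SAUR3 in jaw-5D (-0.07), pifQ (-0.84) and hy5 (-0.64) and SAUR4 in pifQ (-0.11). In 47 the call was lost and in 330 it was kept. Replicate numbers did not pair the samples, with correlations of -0.088 to 0.0813. A replicate block gave 10, 10 and 8 calls against WT, and 0 in H3K4me3. With it 3780, 3525 and 3503 of all 11538 genes tested against WT were longer and 143, 135 and 204 shorter. The median level was 4.36 when computed as FPKM from counts, against 5.91 TPM, and 5.99 to 6.19 TPM with 1 pkl library left out. Peak lists hold no depth, so a missing peak may lie below the limit of detection.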
